A study of Mus musculus with 12 samples.

Results

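Conjugation enzymes make lipophilic compounds water-soluble, and the 3 superfamilies that do most of this work in liver were examined here in mice that differed in the Hippo pathway kinase gene Lats2 and in dietary cholesterol. The genes were those whose array probe set carried exactly 1 gene symbol and whose symbol belonged to the glutathione S-transferases (GST, including the microsomal MGST genes), the UDP-glucuronosyltransferases (UGT) or the sulfotransferases (SULT), without pseudogenes. This gave 52 genes of 22180 measured, with 21 GST, 10 UGT and 21 SULT genes and 1 probe set for each. Livers came from male mice aged 8 weeks at the start. For 9 weeks they then ate either a cholesterol-free chow (normal diet) or a diet with 1.25% cholesterol, labelled high-cholesterol (Paigen) diet. A diet difference here is one between these whole diets, and the part of cholesterol alone was not tested. The mice were wild type (WT) or Lats2-CKO, also labelled Lats2-KO. Each combination of genotype and diet had 3 arrays labelled as biological replicates, 12 in all. The labels used here do not state the strain, the deleted part of Lats2 or the cells in which it was deleted.

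Glutathione S-transferases attach glutathione to electrophiles such as lipid aldehydes and drug epoxides, and they fall into alpha, mu, pi, theta, omega and kappa classes plus the membrane-bound microsomal forms. UDP-glucuronosyltransferases attach glucuronic acid to bilirubin, steroids, bile acids and drugs in the endoplasmic reticulum. Sulfotransferases move a sulfate group from the donor PAPS to phenols, steroids, catecholamines and bile acids in the cytosol. Hepatocytes hold most of these enzymes, and nuclear receptors such as CAR and PXR, the antioxidant factor NRF2, HNF1 and sex-dependent growth hormone signals are known regulators of their genes.

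Promoters of 45 of the 52 genes were found in RefSeq (GRCm38.p6), each as 250 bases before to 50 after a start site. The windows were searched on both strands for TGACNNNGC, the core of the antioxidant response element bound by NRF2, and for GTTAATNAT, part of the site bound by HNF1, where N is any base. Antioxidant cores lay in the windows of 3 of the 45 genes (6.67%), Gsta3, Gstm7 and Mgst1, against 14% of all 27025 genes in the table. The HNF1 letters lay in 5 of 45 (11.1%) against 0.94% of all genes. Sult1d1 and the neighbouring relatives Sult2a3, Sult2a4, Sult2a5 and Sult2a6 were the holders. The promoters below belong to 4 genes with large diet differences in the arrays. They are shown 5′ to 3′ on the strand of the gene, with a match to either motif in capitals. Gstm1 (chr3:108017924-108018223, minus strand, the first of 2 listed starts), Gstm3 (chr3:107969125-107969424, minus strand) and Sult1c2 (chr17:53845909-53846208, minus strand) had no match in these windows. Sult1d1 (chr5:87568957-87569256, minus strand) had GTTAATAAT, which begins at position -79 from the start site. A match is a description of letters and says nothing on whether a factor binds.
Gstm1: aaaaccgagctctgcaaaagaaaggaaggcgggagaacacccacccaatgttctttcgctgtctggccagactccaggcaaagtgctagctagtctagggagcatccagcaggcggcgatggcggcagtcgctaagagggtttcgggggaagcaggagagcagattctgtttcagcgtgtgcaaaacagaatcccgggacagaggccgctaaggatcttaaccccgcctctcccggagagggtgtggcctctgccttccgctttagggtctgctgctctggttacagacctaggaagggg
Gstm3: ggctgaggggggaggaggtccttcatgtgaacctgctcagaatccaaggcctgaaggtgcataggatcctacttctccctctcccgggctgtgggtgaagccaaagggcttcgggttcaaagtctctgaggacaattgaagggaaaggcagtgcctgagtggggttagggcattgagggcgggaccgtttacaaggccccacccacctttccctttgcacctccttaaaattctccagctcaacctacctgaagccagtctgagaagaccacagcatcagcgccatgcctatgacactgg
Sult1c2: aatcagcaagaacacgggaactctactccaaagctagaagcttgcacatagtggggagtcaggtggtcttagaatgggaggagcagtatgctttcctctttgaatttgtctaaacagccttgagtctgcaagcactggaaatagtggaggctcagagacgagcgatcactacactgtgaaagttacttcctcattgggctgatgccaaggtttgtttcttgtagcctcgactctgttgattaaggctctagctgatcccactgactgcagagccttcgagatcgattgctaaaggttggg
Sult1d1: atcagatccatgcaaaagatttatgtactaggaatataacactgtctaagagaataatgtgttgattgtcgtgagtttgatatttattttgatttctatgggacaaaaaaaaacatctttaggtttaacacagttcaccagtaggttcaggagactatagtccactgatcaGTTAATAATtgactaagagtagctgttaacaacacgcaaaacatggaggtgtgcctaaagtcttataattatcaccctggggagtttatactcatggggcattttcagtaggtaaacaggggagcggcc

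Values are log2 expression per probe set, as deposited, so a difference of 1 is 2-fold, and a probe set's level also depends on its probes, so that levels do not rank genes by abundance. Lats2 read 5.14 to 5.97 on the 6 wild-type arrays and 4.37 to 4.99 on the 6 Lats2-CKO arrays, without overlap (genotype difference -0.68 ± 0.23 (SE) on the normal and -0.77 ± 0.23 on the high-cholesterol diet, adjusted p of 0.35 and 1 by limma). The hepatocyte markers, 8 of 8 measured, had mean levels of 12.03 to 12.30 on all 12 arrays. Macrophage markers (14 of 14) had means of 5.55 to 5.69 on Lats2-CKO normal-diet arrays, 6.02 to 6.46 on WT normal-diet arrays, 6.15 to 6.72 on Lats2-CKO high-cholesterol arrays and 6.45 to 7.77 on WT high-cholesterol arrays, and they were thus lowest in the group in which many GST genes were also lowest. Endothelial markers (7 of 7) had means of 7.02 to 7.33 in Lats2-CKO and 7.56 to 7.70 in WT. The means ran from 3.37 to 5.82 for B cell markers (6 of 7), 2.92 to 3.31 for T and NK cell markers (7 of 7), 3.26 to 4.29 for neutrophil markers (5 of 5), 5.07 to 5.71 for stellate cell and fibroblast markers (8 of 8) and 3.53 to 3.98 for cholangiocyte markers (5 of 6), while 0 of 4 erythroid markers were measured. The part of these cells in the results was not tested. In whole liver, fewer cells of a type and less RNA per cell cannot be told apart. The array labelled WT normal diet 3 correlated less with its group mates (0.981 and 0.982 over all genes) than with WT high-cholesterol array 3 (0.992) and Lats2-CKO high-cholesterol array 3 (0.993). For 7 of the 52 genes, Gstt2, Sult1c2, Gstm3, Gstm1, Ugt2b35, Sult1d1 and Gsta4, it read at least 1 log2 unit above the mean of its group mates, and for none of them that far below. Over all genes 2.39% were off by that much on this array, in either direction. Each of the other arrays was off by that much for 0 to 5 of the 52 genes. Results that rest on WT normal-diet array 3 are therefore given with and without it. By their medians the arrays also formed 2 sets that the labels do not name. Medians of 3.48 to 3.49 were found on array 1 of every group and, on the normal diet, also on array 2, in both genotypes. The remaining 6 arrays had medians of 3.42 to 3.43. Values within each set stand beside the larger differences, and on the normal diet the lower-median set holds array 3 alone of each genotype. Nothing in the labels says whether replicates were processed separately, so p-values measure the spread between these arrays.

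Probe sets of conjugation enzymes were often bright in these livers. Of the 52, 43 (82.7%) had a mean above the dim cut of 3.05, a 30th percentile of log2 values, against 69.4% of all genes. A mean of at least 9 was found for 17 of 52 (32.7%), against 4.69% of all genes. All 10 UGT genes passed the dim cut and 7 of them reached 9. Ugt2b36 (mean 12.4) and Ugt2b1 (12.2), which glucuronidate steroids and drugs, and Ugt3a2 (11.02), a relative that uses other sugar donors, had the highest UGT values. Among GST genes 19 of 21 passed, and the highest values belonged to the pi-class Gstp1 (11.9), the major form of male mouse liver, the organelle-bound kappa form Gstk1 (11.1) and the alpha-class Gsta3 (10.3). Of the SULT genes 14 of 21 (66.7%) passed, close to the 69.4% of all genes. Sult1d1 (9.87), which sulfates catecholamines, Sult2a8 (9.84), a bile acid sulfotransferase, and the phenol sulfotransferase Sult1a1 (9.64) were the only 3 SULT genes at 9 or above. The genes under the dim cut were Gstt4, Gsto2, Sult1c1, Sult2a3, Sult2a4, Sult2b1, Sult4a1, Sult6b1 and Sult6b2, chosen for mention after their values were seen.

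The clearest pattern was a low level of GST genes in Lats2-CKO livers on the normal diet and a higher level in the Lats2-CKO livers of the high-cholesterol diet. Over the 21 GST genes, the median difference between diets was 0.44 in Lats2-CKO and -0.06 in WT, while the medians over all genes were -0.02 in both. The WT median was 0.01 without WT normal-diet array 3. Within the higher-median set of arrays, described above, the GST medians were 0.32 in Lats2-CKO and 0.03 in WT, and within the lower-median set 0.55 and -0.27. In Lats2-CKO, 19 of the 21 GST genes had a positive fitted difference. By limma with Benjamini-Hochberg adjustment over all genes, however, Sult1c2 alone of the 52 conjugation genes passed the 0.05 threshold in Lats2-CKO (60 of 22180 genes did, 0.271%), and Sult1c2 alone again with the diet averaged over both genotypes (274 genes, 1.24%). In WT no conjugation gene passed, as no gene did (0%). At an unadjusted p under 0.05, 18 of 52 genes differed between diets in Lats2-CKO against 13.4% of all genes, 16 of them upwards, and 11 of these 18 were GST genes, all upwards. In WT 9 of 52 did, against 10.6% of all genes, and over both genotypes 13 of 52 against 18%. The spread of the fitted differences is drawn by family.

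**Figure D1:**
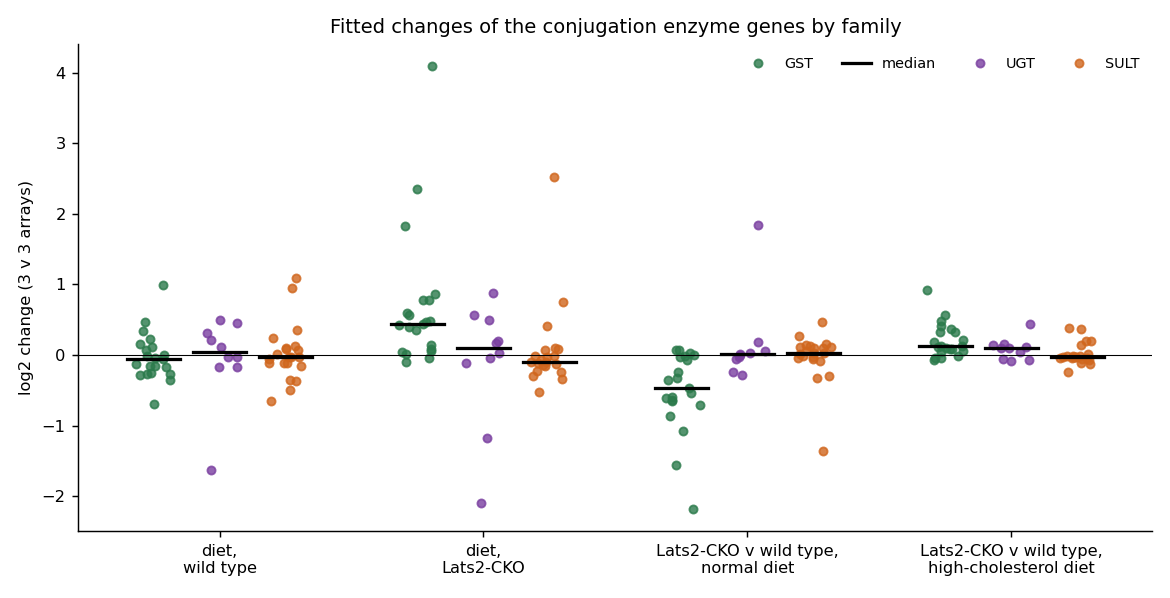
Each point is the log2 difference of 1 conjugation gene (vertical axis) in the comparison named on the horizontal axis, fitted from 3 arrays against 3, and bars are family medians. GST medians were 0.44 for the diet in Lats2-CKO and -0.47 for Lats2-CKO against WT on the normal diet, and -0.06 and 0.12 in the other 2 comparisons.

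These counts were larger when WT normal-diet array 3 was left out. That array was singled out from its values, those of 7 of the 52 genes among them. Leaving it out narrows the estimated spread of genes that it read far from its group mates. Calls without it, here and below, therefore depend on a choice made with the values known. In Lats2-CKO, where that array enters through the shared estimate of spread alone, 6 of 52 genes then passed (2.11% of all genes did): Gstm3, Gstm1, Gstm4, Gsta4, Sult1c2 and Ugt2b36, all higher on the high-cholesterol diet. In WT 4 passed (2.33% of all genes): Gstm3, Sult1c2, Sult1d1 and Ugt2b36, all higher. Over both genotypes 8 passed (7.24% of all genes). These were Gstm3, Gstm1, Gsta4, Sult1c2, Sult1d1, Ugt2b35 and Ugt2b36, which were higher, and Sult3a2, which was lower by 0.31 ± 0.08 (SE) with an adjusted p of 0.049 by limma and was named because it passed. Sult3a2 was dim, at 2.90 to 3.56 over all arrays with a mean of 3.16, close to the dim cut of 3.05. Arrays of the 2 diets did not overlap in Lats2-CKO for 14 genes in the upward direction, against 8.98% of all genes, and for 1, Sult1e1, in the downward direction, against 10.5%. In WT they were apart upwards for 2 genes (4.97% of all genes), Sult1d1 and Sult1a1, and downwards for 3 (8.81%), Gstm2, Ugt2b38 and Sult5a1.

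**Figure D2:**
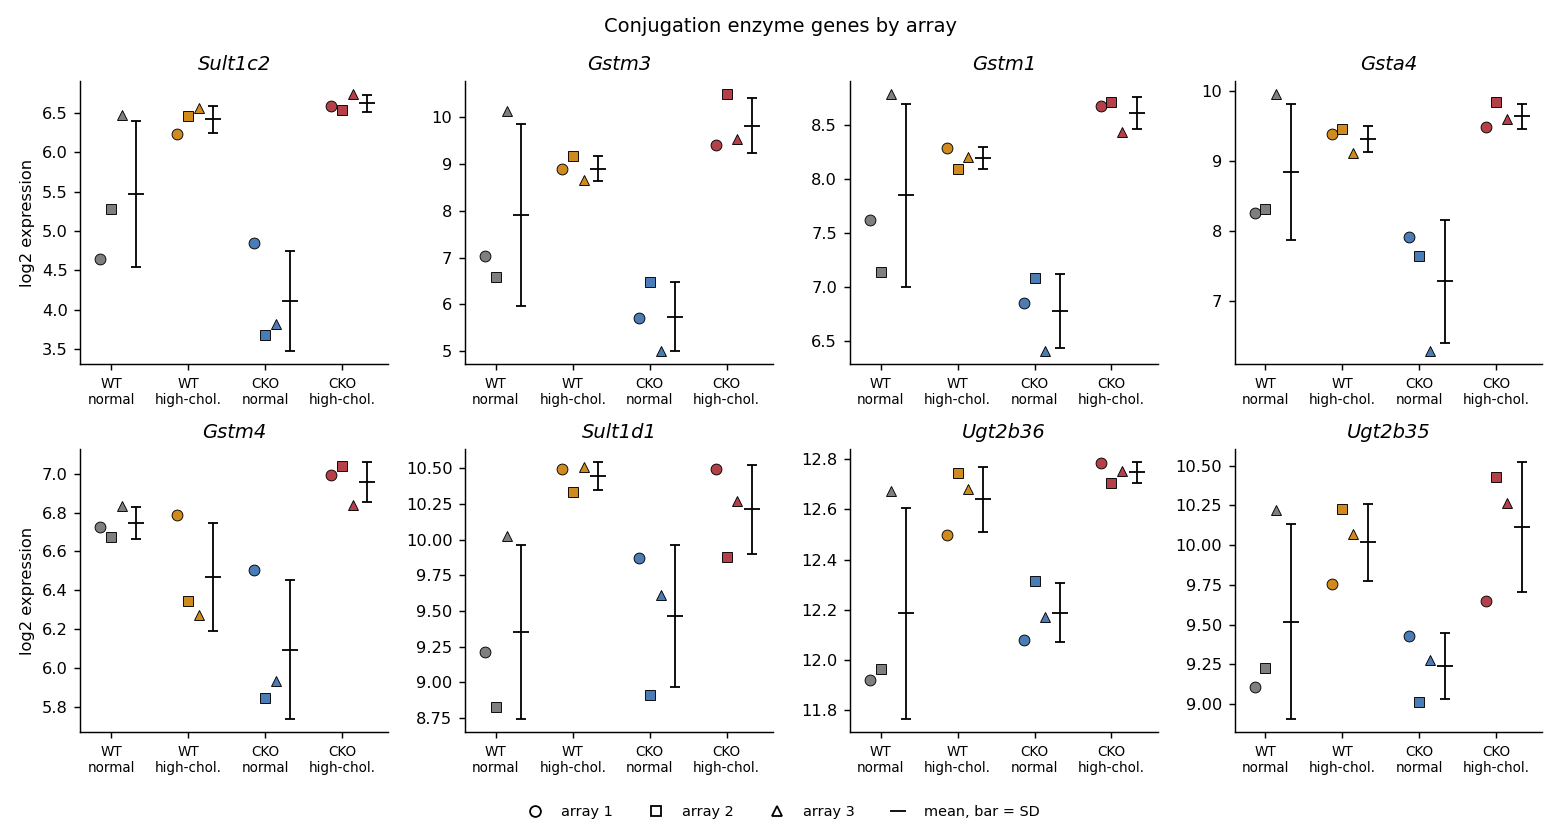
Log2 expression (vertical axes, each with its own scale) of 8 conjugation genes on the 12 arrays, with symbols for the array number and bars for group mean ± SD (n = 3). For Sult1c2, Gstm3, Gstm1 and Gsta4 every Lats2-CKO high-cholesterol array lies above every Lats2-CKO normal-diet array, and WT normal-diet array 3 lies among or above the high-cholesterol arrays.

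The largest difference of the 52 genes between diets was that of the mu-class gene Gstm3 in Lats2-CKO. Gstm3 read 5.71, 6.48 and 5.002 on Lats2-CKO normal-diet arrays and 9.42, 10.50 and 9.54 on Lats2-CKO high-cholesterol arrays. The WT normal-diet arrays read 7.03, 6.58 and 10.14, and the WT high-cholesterol arrays 8.89, 9.18 and 8.65. The 2 diets were thus far apart in Lats2-CKO, while in WT array 3 of the normal diet exceeded all 3 high-cholesterol arrays. The difference between diets was 4.09 ± 0.76 (SE) in Lats2-CKO, a 17.0-fold difference, with an adjusted p of 0.0578 by limma, and 0.99 ± 0.76 in WT (adjusted p = 0.691). With WT normal-diet array 3 left out Gstm3 rose with the diet in both genotypes, by 4.09 ± 0.37 in Lats2-CKO (adjusted p = 0.000938) and by 2.11 ± 0.42 in WT (adjusted p = 0.0332). Within the higher-median set of arrays the Gstm3 difference was 3.32 in Lats2-CKO and 2.09 in WT. Within the lower-median set it was 5.02 in Lats2-CKO and -1.23 in WT, where WT normal-diet array 3 is the only normal-diet array.

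Gstm1, another mu-class enzyme with broad substrates, had the same shape at a smaller size. It read 6.85, 7.09 and 6.41 on Lats2-CKO normal-diet arrays and 8.68, 8.71 and 8.44 on Lats2-CKO high-cholesterol arrays, against 7.62, 7.14 and 8.79 on WT normal-diet arrays and 8.29, 8.09 and 8.21 on WT high-cholesterol arrays. The highest of all 12 values was that of WT normal-diet array 3. The Lats2-CKO difference was 1.83 ± 0.33 (3.55-fold, adjusted p = 0.0518 by limma) and the WT difference 0.35 ± 0.33 (adjusted p = 0.766). These became, without WT normal-diet array 3, 1.83 ± 0.18 (adjusted p = 0.00114) and 0.82 ± 0.20 (adjusted p = 0.0683). In Lats2-CKO the difference was 1.71 within the higher-median and 2.17 within the lower-median set, and in WT it was 0.91 and -0.64.

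The other mu-class genes showed smaller differences, upwards with the diet in Lats2-CKO and close to 0 or downwards in WT. Gstm4 read 6.51, 5.85 and 5.93 against 6.99, 7.04 and 6.84 in Lats2-CKO, normal diet first, and 6.73, 6.67 and 6.83 against 6.79, 6.34 and 6.27 in WT. Its Lats2-CKO arrays did not overlap between diets, and WT normal-diet array 3 did not stand apart from its group. The difference was 0.86 ± 0.18 in Lats2-CKO (adjusted p = 0.0759 by limma, 0.0445 without WT normal-diet array 3) and -0.28 ± 0.18 in WT (adjusted p = 0.623). Gstm2 read 6.07, 6.57 and 6.28 against 6.85, 6.89 and 6.63 in Lats2-CKO, and 7.36, 6.70 and 6.66 against 6.42, 6.29 and 5.95 in WT. For Gstm2 the arrays of the 2 diets were apart in both genotypes but in opposite directions, 0.48 ± 0.20 in Lats2-CKO and -0.69 ± 0.20 in WT (adjusted p = 0.328 and 0.329). Gstm6 had a difference of 0.43 ± 0.15 in Lats2-CKO and -0.35 ± 0.15 in WT. All 6 mu-class genes measured, Gstm7 included, lie next to each other on chromosome 3 in the RefSeq table of GRCm38.p6, and their fitted diet differences ran from 0.35 to 4.09 in Lats2-CKO and from -0.69 to 0.99 in WT. Close relatives can share probe sequence, so a part of 1 relative's signal in another's probe set was not separated here.

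Gsta4, the alpha-class enzyme that conjugates the lipid peroxidation product 4-hydroxynonenal, lies apart from the mu-class genes and was lowest and highest in the same groups. It read 7.92, 7.65 and 6.29 on Lats2-CKO normal-diet arrays and 9.48, 9.84 and 9.60 on Lats2-CKO high-cholesterol arrays. WT normal-diet arrays read 8.26, 8.32 and 9.96, and WT high-cholesterol arrays 9.39, 9.45 and 9.11. Lats2-CKO normal-diet array 3 was the lowest and WT normal-diet array 3 the highest of the 12. The diet difference was 2.36 ± 0.47 in Lats2-CKO (5.12-fold, adjusted p = 0.0658 by limma, 0.00787 without WT normal-diet array 3) and 0.47 ± 0.47 in WT (adjusted p = 0.774, and 1.03 ± 0.38 with 0.198 without that array). Within the higher-median and the lower-median set it was 1.70 and 3.43 in Lats2-CKO, and 1.10 and -0.68 in WT. Gsta3, the other alpha-class gene measured alone, read 9.93 to 10.67 over all arrays, with differences of 0.08 in Lats2-CKO and -0.16 in WT.

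Outside these classes the GST differences in Lats2-CKO were smaller. They were 0.78 ± 0.24 for Gstt1 and 0.77 ± 0.33 for Gstt3, both theta-class, 0.60 ± 0.19 for the microsomal Mgst3 and 0.47 ± 0.18 for the omega-class Gsto1, a dehydroascorbate reductase. None of these 4 passed (adjusted p of 0.186, 0.339, 0.19 and 0.276 by limma), and in WT their differences lay between -0.25 and 0.01. Mgst3 read 3.76, 3.93 and 3.67 against 4.09, 4.68 and 4.39 in Lats2-CKO, without overlap, while the Gstt1, Gstt3 and Gsto1 arrays overlapped. The pi-class genes were uneven. Gstp3 and Gstp2 had differences of 0.57 ± 0.18 and 0.40 ± 0.20 in Lats2-CKO, with arrays of the diets apart (adjusted p of 0.204 and 0.43 by limma), and of -0.27 and 0.23 in WT. Gstp1 read 11.55 to 12.23 over all arrays and the microsomal Mgst1 read 9.38 to 9.97, and the diet differences of both lay between -0.17 and 0.05.

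Between genotypes on the normal diet, GST genes read lower in Lats2-CKO. The median over the 21 GST genes was -0.47, against 0.01 over the 10 UGT genes, 0.03 over the 21 SULT genes and 0.00 over all genes. No conjugation gene passed after adjustment, and 3 of 22180 genes did (0.0135%). At an unadjusted p under 0.05, 13 of 52 conjugation genes differed, against 8.99% of all genes. All 13 were lower in Lats2-CKO, and 12 of them were GST genes with Sult1c2 as the other. Arrays of the genotypes were apart downwards for 11 genes (7.36% of all genes), all GST, and upwards for 2 (5.96%), Sult1a1 and Sult1e1. Those 2 were apart by very little. The lowest Lats2-CKO and highest WT values were 9.507 and 9.505 for Sult1a1, and 3.165 and 3.158 for Sult1e1. When WT normal-diet array 3 was left out, 12 genes had an unadjusted p under 0.05 against 9.47% of all genes, 11 lower and 1 higher, and no conjugation gene passed after adjustment. The smallest p belonged to Gstm6, with 4.27, 3.95 and 3.64 in WT and 3.45, 3.35 and 3.29 in Lats2-CKO, a difference of -0.59 ± 0.15 (adjusted p = 0.25 by limma, 0.102 without WT normal-diet array 3). Differences for Gstm3, Gsta4 and Gstm1 were -2.18 ± 0.76, -1.56 ± 0.47 and -1.07 ± 0.33 (adjusted p of 0.383, 0.3 and 0.305). They were smaller without WT normal-diet array 3, at -1.07 ± 0.42, -1.003 ± 0.38 and -0.60 ± 0.20, while Gstm2 went from -0.60 to -0.73 and Gstm4 from -0.65 to -0.61. Within the higher-median set the differences were -0.71 for Gstm3, -0.50 for Gsta4 and -0.41 for Gstm1. Within the lower-median set, array 3 against array 3, they were -5.14, -3.67 and -2.38. The GST median was -0.35 within the higher-median and -0.38 within the lower-median set. These differences and the diet differences in Lats2-CKO use the same 3 Lats2-CKO normal-diet arrays, so they are not independent of each other.

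On the high-cholesterol diet the fitted genotype differences were positive for 17 of 21 GST genes (median 0.12) and negative for 15 of 21 SULT genes (median -0.02), against a median of 0.01 over all genes. No conjugation gene passed by limma, nor did any of the 22180 genes (0%). Only Gstm2 (0.57 ± 0.20) and Gstm4 (0.49 ± 0.18) had an unadjusted p under 0.05, 2 of 52 against 2.93% of all genes, and both had an adjusted p of 1. When WT normal-diet array 3 was left out, Gstm3 (0.91, a 1.89-fold difference) and Gstm1 (0.41) joined them, 4 of 52 against 3.05%, each again with an adjusted p of 1. Arrays of the genotypes were apart upwards for 6 genes (4.07% of all genes), Gsta4, Gstm1, Gstm2, Gstm3, Gstm4 and Sult2a7, and downwards for 0 (3.37%). Averaged over both diets, 1 of 52 genes had an unadjusted p under 0.05, Gsto1 at -0.31 ± 0.13, against 5.97% of all genes, and none passed where 1 gene of 22180 did (0.00451%).

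The interaction asks whether the diet acted differently in the 2 genotypes. Its fitted value was positive for 19 of 21 GST genes, with a median of 0.48 against 0.00 over all genes, and no conjugation gene passed (1 of 22180 genes did, 0.00451%). At an unadjusted p under 0.05, 10 of 52 genes differed against 5.62% of all genes, all with a positive interaction, which is the Lats2-CKO diet difference minus that in WT, and 9 of them were GST genes. Of the 10, Gstm3, Gstm1, Gsta4 and Sult1c2 had positive diet differences in both genotypes, and Gstm2, Gstm4, Gstm6, Gstp3, Gstt1 and Mgst3 had a positive one in Lats2-CKO and a negative one in WT. When WT normal-diet array 3 was left out, 11 of 52 did against 7.11%. Gstm4 had the smallest p, at 1.14 ± 0.25 with an adjusted p of 0.71 by limma, and 1.09 ± 0.28 with 0.476 without WT normal-diet array 3. Gstm2 followed at 1.17 ± 0.28 (adjusted p = 0.744). The Gstm3 value was 3.10 ± 1.08 and did not pass either (adjusted p = 0.758). It was 1.98 ± 0.56 without that array, 1.24 within the higher-median and 6.25 within the lower-median set. A difference between the genotypes in their diet response was therefore not detectable for any single conjugation gene with 3 arrays a group.

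**Figure D3:**
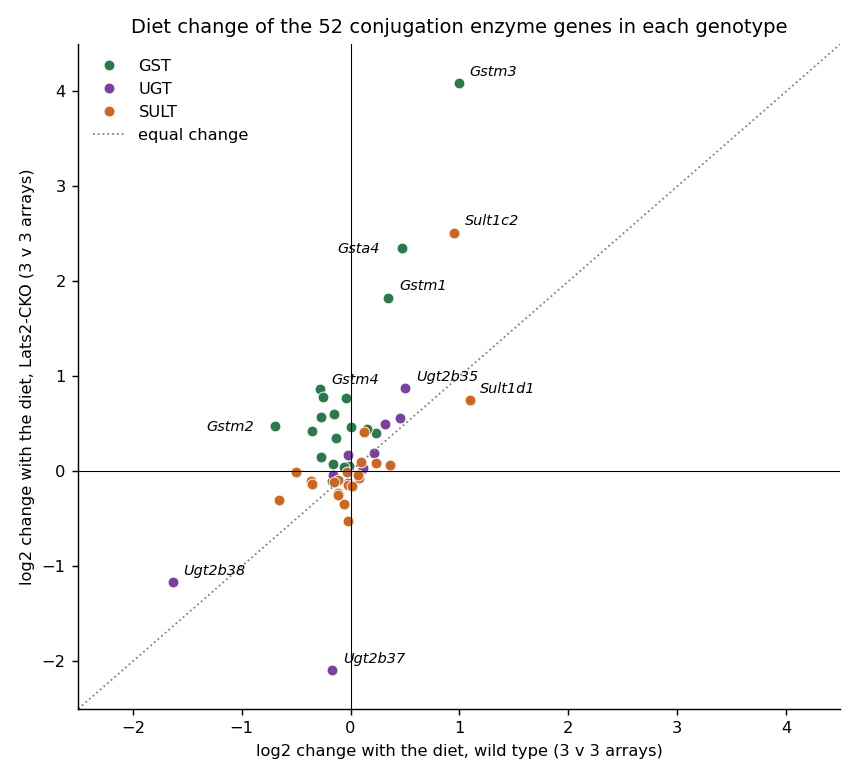
The log2 difference between diets of each of the 52 conjugation genes in WT (horizontal axis) and in Lats2-CKO (vertical axis), with families in colour and the line of equal change dotted. Gstm3 (0.99 and 4.09), Sult1c2 (0.95 and 2.51), Gsta4 (0.47 and 2.36) and Gstm1 (0.35 and 1.83) lie farthest above the line, and Ugt2b37 (-0.17 and -2.09) farthest below.

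UGT genes differed less between groups by their medians. The median diet differences were 0.05 in WT and 0.10 in Lats2-CKO, and the median genotype differences were 0.01 on the normal and 0.10 on the high-cholesterol diet. Ugt2b36, the UGT gene with the highest level, read 11.92, 11.96 and 12.67 on WT normal-diet arrays and 12.50, 12.74 and 12.68 on WT high-cholesterol arrays. In Lats2-CKO it read 12.08, 12.31 and 12.17 on the normal and 12.79, 12.70 and 12.75 on the high-cholesterol diet, without overlap. The differences were 0.46 ± 0.17 in WT and 0.56 ± 0.17 in Lats2-CKO (adjusted p of 0.407 and 0.186 by limma). With WT normal-diet array 3 left out Ugt2b36 rose in both genotypes, by 0.70 ± 0.11 and 0.56 ± 0.10 (adjusted p of 0.0132 and 0.0198), a 1.62-fold and a 1.47-fold difference.

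Ugt2b35 read 9.43, 9.01 and 9.28 on Lats2-CKO normal-diet arrays and 9.65, 10.43 and 10.27 on Lats2-CKO high-cholesterol arrays. WT arrays read 9.10, 9.22 and 10.22 on the normal and 9.75, 10.23 and 10.07 on the high-cholesterol diet, so that again array 3 of the WT normal diet sat among the high-cholesterol arrays. Over both genotypes the difference was 0.69 ± 0.20 (adjusted p = 0.117 by limma), and without that array Ugt2b35 rose by 0.86 ± 0.15 (adjusted p = 0.00867). None of the remaining UGT genes with bright probe sets passed. Ugt2b1 read 11.84 to 12.45, Ugt2b34 10.44 to 10.98, Ugt2a3 9.54 to 10.44, Ugt3a1, which uses N-acetylglucosamine as its sugar donor, 8.31 to 9.12 and Ugt3a2 10.87 to 11.24. Ugt2b5 was wider, at 9.86 to 11.32, with diet differences of 0.32 ± 0.39 in WT and 0.49 ± 0.39 in Lats2-CKO. Its lowest array was WT high-cholesterol array 1 and its highest WT high-cholesterol array 2, so its spread lay within a group.

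Ugt2b37 and Ugt2b38 varied widely between mice of the same group. Pooled over the 4 groups the SD within groups was 1.62 for Ugt2b37 and 0.90 for Ugt2b38, with 1.09 for Gstm3 between them. Ugt2b37 read 3.84, 7.43 and 4.85 on WT normal-diet arrays, 4.90, 7.43 and 9.30 on Lats2-CKO normal-diet arrays, 4.12, 6.33 and 5.17 on WT high-cholesterol arrays and 3.99, 5.86 and 5.51 on Lats2-CKO high-cholesterol arrays. Array 1 was the lowest of each group, and the differences between groups lay within this spread, with -2.09 ± 1.13 for the diet in Lats2-CKO (adjusted p = 0.47 by limma). Ugt2b38 read 4.18, 6.30 and 4.74 on WT normal-diet arrays and 3.12, 3.53 and 3.66 on WT high-cholesterol arrays, without overlap. In Lats2-CKO it read 5.28, 3.81 and 6.05 against 3.69, 3.18 and 4.76, with overlap. Its difference over both genotypes was -1.40 ± 0.45 (adjusted p = 0.138 by limma).

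**Figure D4:**
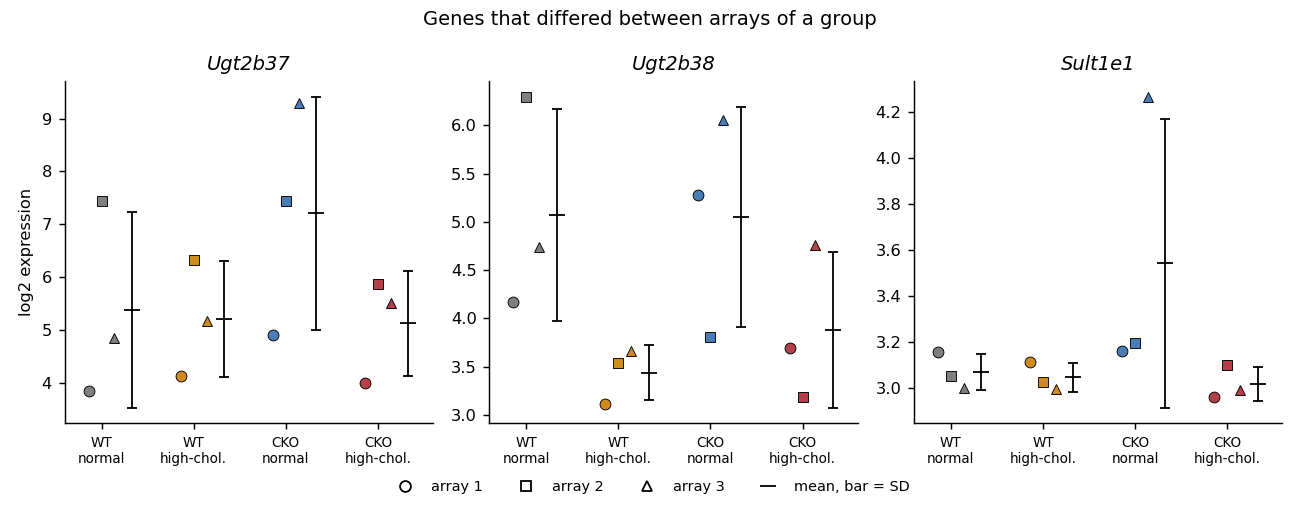
Log2 expression (vertical axes) of Ugt2b37, Ugt2b38 and Sult1e1 on the 12 arrays, with symbols for the array number and bars for group mean ± SD (n = 3). Ugt2b37 spans 3.84 to 9.30, and Sult1e1 leaves the narrow band of 2.96 to 3.20 on a single array, Lats2-CKO normal diet 3, at 4.27.

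Among SULT genes, Sult1c2, a phenol-sulfating enzyme, was the conjugation gene that passed the test. It read 4.84, 3.67 and 3.81 on Lats2-CKO normal-diet arrays and 6.59, 6.54 and 6.74 on Lats2-CKO high-cholesterol arrays, and rose by 2.51 ± 0.41, a 5.71-fold difference (adjusted p = 0.0332 by limma). WT arrays read 4.65, 5.27 and 6.48 on the normal and 6.23, 6.47 and 6.56 on the high-cholesterol diet, so WT normal-diet array 3 overlapped the other diet. The WT difference was 0.95 ± 0.41 (adjusted p = 0.449), and 1.46 ± 0.31 with an adjusted p of 0.0435 without that array. Over both genotypes Sult1c2 rose by 1.73 ± 0.29 (adjusted p = 0.0305). The size of the Lats2-CKO difference was steady, at 2.33 within the higher-median and 2.83 within the lower-median set. The call was not steady: the adjusted p was 0.0596 with the array set as a block. It was also 0.0503 to 0.122 when 1 of 8 arrays was left out, which were WT normal diet 2, WT high cholesterol 2 and 3, Lats2-CKO normal diet 2 and 3, and all 3 Lats2-CKO high-cholesterol arrays. For the diet over both genotypes it was 0.067 with the set block, and 0.058 to 0.094 without 1 of 8 arrays, which were WT normal diet 1 and 2, WT high cholesterol 2, Lats2-CKO normal diet 2 and 3, and all 3 Lats2-CKO high-cholesterol arrays. Leaving out WT normal-diet array 3 gave 0.0019 in Lats2-CKO and 0.00067 over both genotypes.

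For Sult1d1 the arrays of the diets were apart in both genotypes, but in Lats2-CKO by very little. There the highest normal-diet value was 9.871 and the lowest high-cholesterol value 9.876. The fitted difference of Sult1d1 was larger in WT than in Lats2-CKO. It read 9.21, 8.82 and 10.02 on WT normal-diet arrays and 10.50, 10.33 and 10.51 on WT high-cholesterol arrays, and 9.87, 8.91 and 9.61 against 10.49, 9.88 and 10.27 in Lats2-CKO. The differences were 1.09 ± 0.30 in WT and 0.75 ± 0.30 in Lats2-CKO (adjusted p of 0.328 and 0.315 by limma), with an interaction of -0.34 ± 0.43 (adjusted p = 0.982). With WT normal-diet array 3 left out Sult1d1 rose in WT by 1.43 ± 0.27 (adjusted p = 0.0266). Within the higher-median set the WT difference was 1.48 and within the lower-median set 0.40. Sult1b1, which sulfates thyroid hormones and lies beside it, had differences of 0.12 ± 0.15 in WT and 0.41 ± 0.15 in Lats2-CKO (adjusted p of 0.828 and 0.251), and its Lats2-CKO arrays were apart between diets.

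No other SULT gene passed in either diet comparison, and 16 of the 21 read at most 4.66 on every array. Sult1a1 read 9.50, 9.47 and 9.21 on WT normal-diet arrays and 9.83, 9.63 and 9.82 on WT high-cholesterol arrays, apart but small at 0.36 ± 0.14 (adjusted p = 0.407 by limma). Sult2a8 read 9.08 to 10.27 over all arrays, with -0.50 ± 0.22 for the diet in WT (adjusted p = 0.455) and -0.01 ± 0.22 in Lats2-CKO. Sult1e1, the estrogen sulfotransferase, read 2.96 to 3.20 on 11 arrays and 4.27 on Lats2-CKO normal-diet array 3, the array with the highest Ugt2b37. The enzymes of female mouse liver that sulfate steroids and bile acids, Sult2a1 (3.06 to 3.59), Sult2a2 (2.95 to 3.35) and Sult2a5 (2.89 to 3.56), read low on all arrays. So did Sult3a1 (2.90 to 3.50), also an enzyme of female mouse liver, and the cholesterol sulfotransferase Sult2b1 (2.62 to 3.06). Sult5a1 read 3.07 to 4.63, with -0.66 for the diet in WT and -0.30 in Lats2-CKO. The 8 SULT2A neighbours on chromosome 7 had fitted diet differences of -0.50 to 0.09 in WT and -0.34 to 0.10 in Lats2-CKO. The 11 neighbours on chromosome 5, 8 UGT2 genes with Sult1b1, Sult1d1 and Sult1e1, ranged from -1.63 to 1.09 in WT and from -2.09 to 0.87 in Lats2-CKO.

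The genes that supply and clear conjugates, counted from lists of textbook members, gave no call by limma with all arrays in any of these 9 lists for the diet in either genotype. Of the genes that make and recycle glutathione, 9 of 10 were measured, and their median diet difference in Lats2-CKO was 0.13 (3 higher and 1 lower at an unadjusted p under 0.05, which 13.4% of all genes had). The medians were 0.20 over 7 genes of glucuronate supply and deconjugation and -0.05 over 9 genes of sulfate donor supply and desulfation. These 2 lists thus mix genes for adding and for removing a group. Over 7 conjugate export pumps the median was 0.38, and 4 were higher at that p. When WT normal-diet array 3 was left out, the export pump Abcc3 rose in Lats2-CKO by 1.05 ± 0.18 (adjusted p = 0.0213). In the list of glucuronate supply and deconjugation, again without that array, Ugp2, which makes UDP-glucose, rose in Lats2-CKO by 0.70 ± 0.14 (adjusted p = 0.04 by limma). The transporter gene Slc35b1 of that list fell by 1.01 ± 0.15 (adjusted p = 0.0087). In WT, likewise without that array, Ugp2 rose by 1.20 ± 0.16 (adjusted p = 0.00782 by limma) and Slc35b1 fell by 1.29 ± 0.17 (0.00692), as did the sulfate transporter gene Slc26a1 by 0.82 ± 0.18 (0.0477). Genes inducible by CAR and PXR, 13 of 15 measured, had a median of 1.04 for the diet in Lats2-CKO and 0.42 in WT, and without that array 6 of the 13 rose in Lats2-CKO (2.11% of all genes passed there in either direction) and 2 in WT (2.33%). Their mean level was 9.41 on WT normal-diet array 3 against 7.79 and 7.83 on its group mates, 8.72 to 8.91 in WT and 9.14 to 9.42 in Lats2-CKO on the high-cholesterol diet. Genes inducible by NRF2 other than GSTs, 12 of 13 measured, had a median of 0.15 in Lats2-CKO and 0.18 in WT. None of them was called in either genotype with or without that array (4 higher and 1 lower at an unadjusted p under 0.05 in Lats2-CKO, 0 in WT). For the diet over both genotypes none was called with all arrays. Without that array 1 was called higher and 1 lower there, where 7.24% of all genes passed. Of the factors that control conjugation genes, 17 of 18 were measured with a median of -0.08 in Lats2-CKO. Without WT normal-diet array 3 Stat5b, which carries growth hormone signals, rose in Lats2-CKO by 1.05 ± 0.11 (adjusted p = 0.00174 by limma) and in WT by 1.06 ± 0.13 (0.00482), and the aryl hydrocarbon receptor gene Ahr fell by 1.27 ± 0.23 (0.0229) and 1.35 ± 0.25 (0.0268). Female-biased liver genes (15 of 17) had a median diet difference of 0.30 in Lats2-CKO and -0.02 in WT, with 5 higher and 1 lower at an unadjusted p under 0.05 in Lats2-CKO. Male-biased genes (14 of 17) had a median of -0.30 in Lats2-CKO, with 3 higher and 5 lower at that p, and of -0.25 in WT. Without WT normal-diet array 3 the WT medians were -0.07 and -0.69. In Lats2-CKO, without that array, the female-biased Cyp2b9, Cyp2b13, Cyp2a4 and Fmo2 and the male-biased Cyp4a12b rose and the male-biased Cyp7b1 fell. In WT Cyp2b9 and Fmo2 rose and Cyp7b1 fell. Cyp2b9 and Cyp2b13 are also in the CAR and PXR list, and these genes were named after their values were seen.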

How the data were processed

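Total RNA of 12 livers was labelled with a whole-transcript kit (250 ng each) and hybridised to single-colour Affymetrix arrays, per the labels. The values are log2 expression per probe set, deposited by the authors. Per the submitters' processing notes they come from RMA in Partek 6.6. The log2 scale was taken from the range of the values, and the RMA settings and genome build are not given in the sources used here. Signal over background could not be examined, and the number of arrays limits precision.

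Probe sets were named through the platform annotation. Of 41345, 23521 had 1 symbol, 1814 had several and 16010 had none. The probe set with the highest mean stood for a gene, which left 22180 genes. In R 4.3.3, limma 3.58.1 (lmFit, eBayes) fitted 4 group means over all 12 arrays, with Benjamini-Hochberg adjustment over the 22180 genes and a threshold of 0.05. The fit was tested on simulated data. Errors of differences are SE from this fit.

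Genes named are those past the threshold, the gene with the smallest p of each superfamily in each comparison, the 3 of each superfamily with the highest mean, and 36 fixed names, of which 32 were measured (Gsta1, Gsta2, Gstz1 and Ugt1a1 were not by a probe set of 1 gene). Others were named after their values were seen. The genes and lists were chosen with earlier results of these data known. Alternatives covered the arrays fitted, blocks, priors, weights, filters, scaling, probe-set choice and each array left out. RefSeq tables (GRCm38.p6) gave promoters and gene order.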

Additional observations from a re-analysis of the deposited data

How the results depend on the processing

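There were 24 alternatives, 1 of them (every probe set tested as its own feature) chosen after seeing the data. Of all 364 gene values (52 genes in 7 comparisons), 151 turned sign under at least 1 alternative. None of the 66 with an unadjusted p under 0.05 did, and the smallest p of those that turned was 0.264. Without WT normal-diet array 3 alone 37 turned, among them the WT diet differences of Mgst3 (-0.15 to 0.07) and Gstt3 (-0.04 to 0.16), and the WT median over GST genes went from -0.06 to 0.01. The number of conjugation genes called for the diet in Lats2-CKO, 1 as reported, was 0 with the replicate block, 0 with the array set as a block, 0 over every probe set, 2 with a trended and robust prior, 2 with the mean of probe sets, 4 with only the arrays compared, 4 with dim genes left out, 5 with array weights, and 8 with the array set block without WT normal-diet array 3. Leaving out each array in turn gave 0 to 6. For the diet over both genotypes, 1 as reported, it was 0 with the array set block, 0 over every probe set, 2 with the replicate block, 2 after quantile normalisation, 3 with the trended and robust prior, 5 with dim genes left out, 7 with array weights, 8 with the set block without WT normal-diet array 3, and 0 to 8 with each array left out. For the diet in WT, 0 as reported, it was 2 with the set block without WT normal-diet array 3 and 0 to 4 with each array left out. It was 0 for the genotype comparisons and the interaction under all alternatives. In all 3 diet comparisons the highest count came with WT normal-diet array 3 left out, alone or together with the array set block. Over the 66 single-gene values followed under every alternative (named genes at an unadjusted p under 0.05 or with the smallest p of a superfamily), 57 alternative values newly passed the threshold and 21, all of Sult1c2, no longer did. The labels do not say that replicate numbers pair the samples, so the replicate block is given only as an alternative. In their deviations from group means the 18 same-numbered pairs of arrays correlated at 0.002 to 0.18, with 7 above 0.1. The other pairs correlated at -0.23 to 0.18. Whether arrays of the same number share a source of variation was not tested. With 3 arrays a group, and probe signal over background not analysed here, the number of arrays limits which differences can be detected.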

Other observations

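Family probe sets that carry several gene symbols were outside the counts above, and 9 of them were measured. A probe set shared by Gsta1, Gsta2, Gm3776 and Gm10639, alpha-class enzymes known for strong induction by xenobiotics, read 6.94, 7.41 and 5.97 on Lats2-CKO normal-diet arrays and 8.97, 9.33 and 9.02 on Lats2-CKO high-cholesterol arrays. WT arrays read 6.88, 7.65 and 9.34 on the normal and 8.96, 8.12 and 8.52 on the high-cholesterol diet, so WT normal-diet array 3 was the highest of the 12, as for Gstm1 and Gsta4. The diet difference was 2.34 ± 0.55 (SE) in Lats2-CKO and 0.58 ± 0.55 in WT, with adjusted p of 0.157 and 0.798 by limma over every probe set. A probe set of Gsta1, Gsta2 and Gm3776 differed by 1.25 ± 0.60 and 1.08 ± 0.60. The probe set shared by 8 UGT1A genes, the family of the bilirubin enzyme Ugt1a1, read 6.92 to 7.41 over all arrays, with diet differences of 0.19 ± 0.14 in Lats2-CKO and -0.07 ± 0.14 in WT. The probe set shared by Gstz1, a tyrosine breakdown enzyme, and Pomt2 read 10.56 to 11.23. None of the 9 passed in any comparison.

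Cyp2b9, a cytochrome P450 gene of the CAR and PXR list named here after its values were seen, read 4.08, 4.20 and 10.24 on WT normal-diet arrays 1 to 3. The Lats2-CKO arrays of that diet read 7.83 to 8.22. On the high-cholesterol diet it read 9.40 to 10.15 in WT and 9.73 to 10.69 in Lats2-CKO. Without WT normal-diet array 3 it was higher in Lats2-CKO than in WT on the normal diet by 3.94 ± 0.29 (adjusted p = 0.000858 by limma). In the same fit 10 of the 21 GST genes were lower at an unadjusted p under 0.05, against 9.47% of all genes in either direction. All 10 were among the 12 GST genes lower at that p with all arrays. The 2 fits share all other arrays, so the second is not an independent test. Whether Cyp2b9 and the GST genes share a cause was not tested.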
